A study of Mus musculus with 6 samples.

Results

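The tumour suppressor p53, genes it can switch on and kinases that signal DNA damage to it belong to a set of 34 listed genes. The set includes cyclin G, Gadd45 and sestrin genes, some of which other factors induce. Each of the 34 was found in the count table by matching its symbol to an Ensembl identifier of the mm10 assembly (GENCODE M21). All 34, of the 47729 genes in the table, matched and passed the filter on low counts. The libraries are bulk RNA-seq of mouse bone marrow, 3 from mice lacking the SNORD113-114 cluster (cluster KO) and 3 from wildtype mice. This cluster encodes box C/D small nucleolar RNAs, and the series asks which genes change when it is lost. The sources used here state neither strain, age nor sex, nor how the allele was deleted. They do not say that each library is a separate mouse, so the p-values cover only library-to-library spread, which may be technical.

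In unstressed cells p53 protein is kept low by the ubiquitin ligase Mdm2 and its relative Mdm4. DNA damage activates the kinases Atm and Atr, which act through Chek2 and Chek1 and stabilise p53. The protein then switches on genes for cell cycle arrest, DNA repair, metabolism and apoptosis, Mdm2 among them, which closes a feedback loop. Ribosomal stress can also stabilise p53, because free ribosomal proteins such as Rpl5 and Rpl11 bind Mdm2. In bone marrow the pathway is known for limiting stem and progenitor cells after damage. Much of this control acts on the protein, which RNA counts do not measure.

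Library depth ran from 17663369 to 23459168 counts on genes. Levels below are in CPM, read counts relative to the depth of the library, on library sizes scaled with the trimmed mean of M values (TMM), and libraries are given in the order 1, 2, 3 of each genotype. Log2 fold changes are cluster KO against wildtype, and "rose" or "fell" means an adjusted p of at most 0.05 in the edgeR quasi-likelihood test over 15686 genes. Marker genes of several marrow lineages were detected. Their counts below stand beside 15.9% of all tested genes that rose and 12.1% that fell. Of 20 B lineage markers 13 rose and 0 fell, with summed levels of 2774 to 2886 CPM in cluster KO and 928 to 1019 CPM in wildtype libraries. Of 18 tested neutrophil markers 7 rose and 0 fell (11920 to 22030 against 6799 to 12700 CPM). Of 15 tested erythroid markers 6 fell and 0 rose (7704 to 11070 against 8878 to 9582 CPM), and of 10 tested megakaryocyte markers 4 fell and 1 rose (308 to 311 against 464 to 557 CPM). Of 16 stem and early progenitor markers 8 rose and 2 fell (2250 to 2289 against 1715 to 1760 CPM), of 14 tested T and NK markers 4 rose and 1 fell, and of 14 monocyte markers 1 rose and 0 fell. Every B lineage, neutrophil, erythroid and megakaryocyte marker found in the table had counts. Whether these shifts account for any gene below was not tested, and in bulk RNA fewer cells of a type and less RNA per cell cannot be told apart.

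Trp53 and Wrap53 lie head to head on chromosome 11, and their RNAs were both higher in cluster KO. The stretch between the annotated ends of the 2 genes is shown because it serves as the upstream region of each, and capitals mark a p53 decamer, the 10-base unit that p53 binds in pairs. It is printed on the plus strand, chr11:69580256-69580358 (GRCm38.p6, sequence from RefSeq). The decamer lies 75 to 66 bases before the start of Trp53 and 43 to 34 bases before the RefSeq start of Wrap53. That RefSeq start is not the annotated end of Wrap53 that bounds the stretch.
Trp53 and Wrap53: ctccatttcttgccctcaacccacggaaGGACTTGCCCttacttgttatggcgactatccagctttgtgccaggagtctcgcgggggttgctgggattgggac

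RefSeq promoter windows, 250 bases before to 50 bases after a start site, were matched for 27 of the 34 genes. A p53 decamer without mismatch was found in the windows of 10 of the 27 (37%), against 8.17% of 10821 tested genes with a window and 9.55% of all 27025 genes with one. The 10 genes were Trp53, Mdm2, Ccng1, Sesn1, Aen, Gadd45a, Polk, Ei24, Ppm1d and Wrap53, where Trp53 and Wrap53 share a single match. They include 3 that rose (Trp53, Sesn1 and Wrap53), 2 that fell (Gadd45a and Ei24) and 5 that did neither, so a match went with no single direction. A full p53 site of 2 decamers with 0 to 13 bases between was found in 0 of the 27 windows and in 0.074% of all. The decamer of Sesn1 lies 173 to 164 bases before 1 of its start sites, on the plus strand at chr10:41887241-41887300 (GRCm38.p6, RefSeq), with the decamer in capitals.
Sesn1: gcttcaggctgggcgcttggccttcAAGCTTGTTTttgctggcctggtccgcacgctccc

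Other motifs were searched on both strands. The cyclic AMP response element TGACGTCA was in the windows of Btg2, Plk2 and Ppm1d, 3 of 27 (11.1%), against 3.42% of tested genes. It is shown in capitals for Btg2 (minus strand, chr1:134079289-134079346) and Plk2 (plus strand, chr13:110394957-110395014, both GRCm38.p6, RefSeq), a pair that are both immediate early genes as well as p53 targets.
Btg2: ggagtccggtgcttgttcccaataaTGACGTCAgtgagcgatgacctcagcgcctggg
Plk2: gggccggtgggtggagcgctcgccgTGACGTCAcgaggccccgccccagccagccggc

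A consensus NF-kappaB motif of 10 bases was found in the overlapping windows of Trp53 and Wrap53 as a single shared match, from 5 bases before to 5 bases after the start of Trp53, and in 0.231% of tested genes. The E2F motif TTTCCCGC was in the window of Chek2 alone (2.34% of tested genes), and TTTGGCGC was in none (1.09%). The FOXO motif GTAAACA was in those of Mdm2, Sesn1 and Eda2r (3.23% of tested genes), and TTTGAA, the cell cycle genes homology region, in Aen and Fas (14.7%). CCAAT was in 16 of the 27 windows (59.3%, against 42.6% of tested genes), and a serum response element of 10 bases in 0 (0.0277%). A match is a description of these letters, not evidence of a bound factor.

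Of the 34 genes, 9 rose and 4 fell in cluster KO, while 21 did not pass. The rises were Trp53, Wrap53, Ccng2, Gadd45b, Btg2, Phlda3, Fas, Sesn1 and Ddb2, and the falls were Ei24, Brca1, Zmat3 and Gadd45a. Called genes made up 38.2% of the set, 26.5% higher and 11.8% lower, beside 27.9% of all tested genes, 15.9% higher and 12.1% lower. The median log2 fold change of the 34 was 0.21, beside 0.002 over all tested genes, and the median size was 0.63 beside 0.46. The libraries of the genotypes did not overlap for 19 of the 34 genes, where 46.0% of all tested genes had no overlap. With 1 library left out the number that rose was 3 without cluster KO 2, 4 without cluster KO 3, 4 without wildtype 2 and 3 without wildtype 3, and the number that fell was 2 without cluster KO 2. Over all tested genes 1258, 1684, 1412 and 1303 rose in the same 4 fits, beside 2487 in the main fit. Without cluster KO 2, 742 of all tested genes fell, beside 1895 in the main fit. Once length and GC trends of each library were removed, 5 rose, namely Ccng2, Gadd45b, Sesn1 and Ddb2 of the 9 and Trp53inp1, which did not pass otherwise. In that fit 4 of the 34 fell. Over all 15686 tested genes 2030 rose and 1772 fell in it, 24.2% called.

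**Figure D1:**
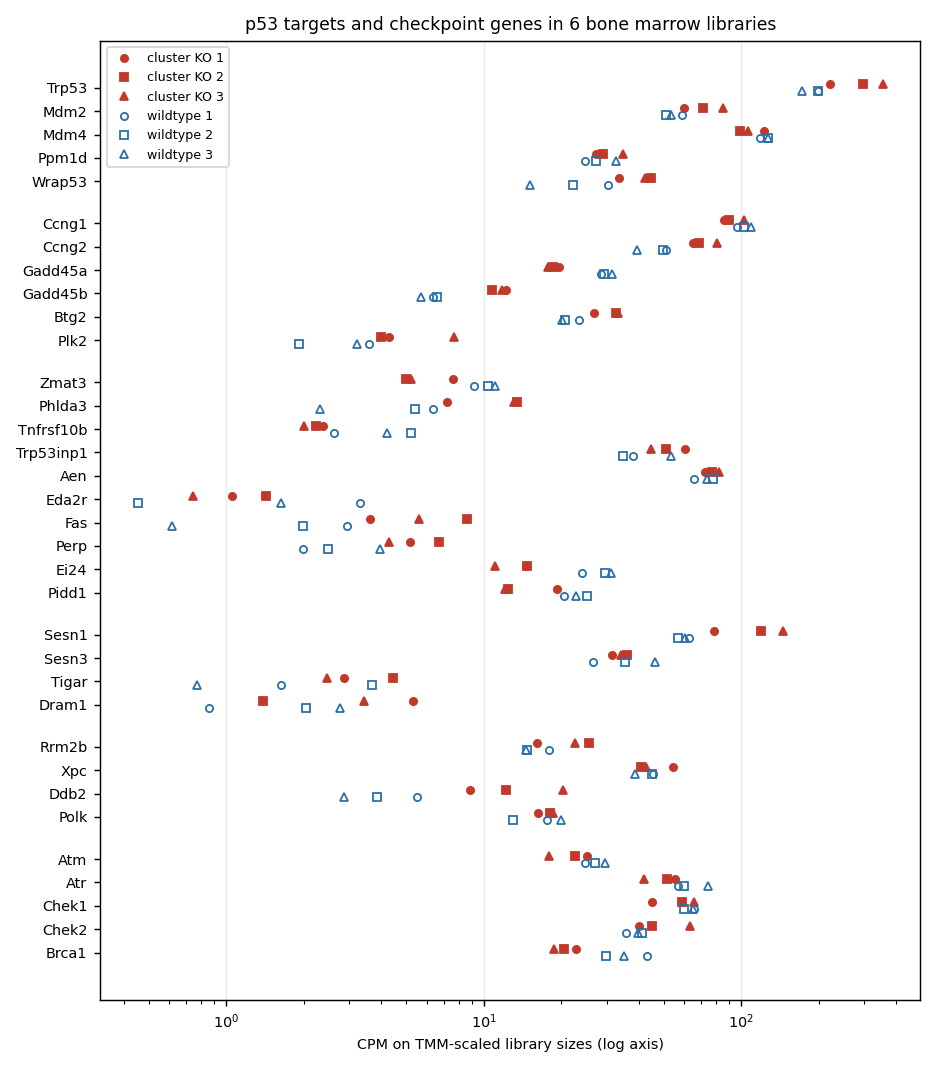
Level of each of the 34 genes in 6 libraries, in CPM on a log axis, with genes grouped by role from the p53 circuit at the top to the checkpoint kinases at the bottom. Filled red symbols are cluster KO and open blue symbols wildtype libraries. The genotypes separate without overlap for 19 of the 34 genes, among them Trp53, Gadd45a, Gadd45b, Ddb2 and Ei24, where 46.0% of all tested genes separate so.

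**Figure D2:**
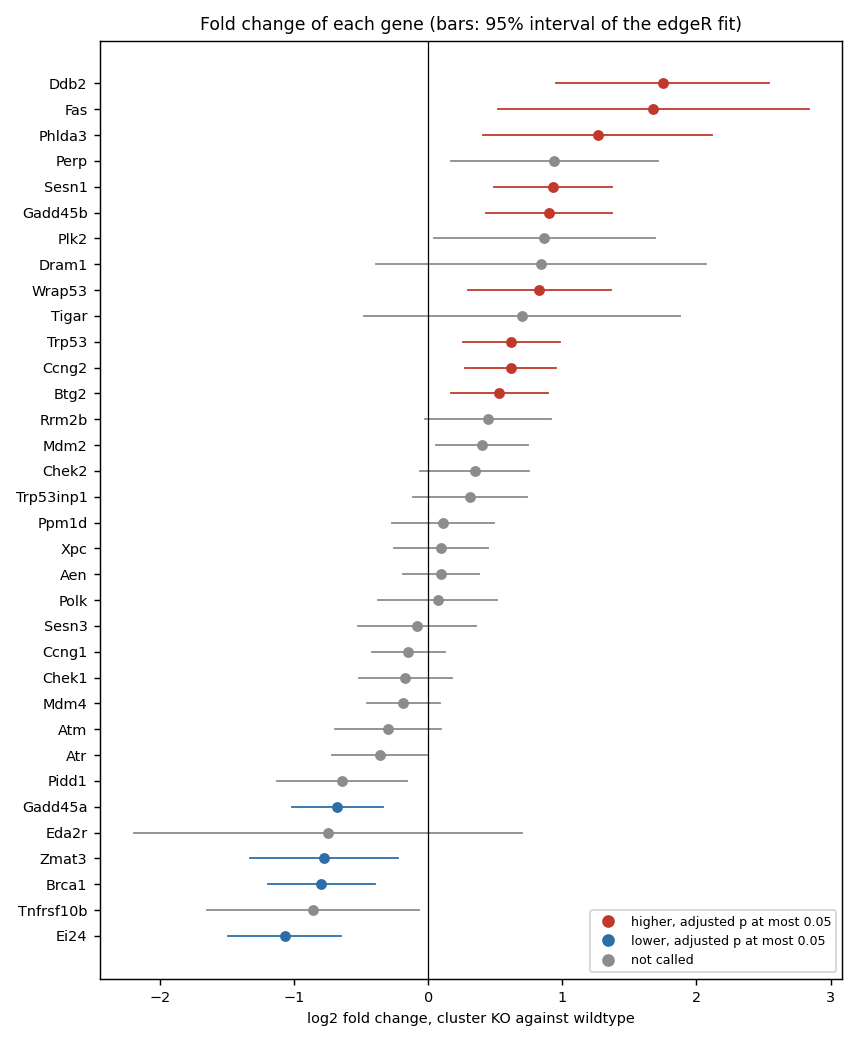
Log2 fold change of each gene, cluster KO against wildtype, with its 95% interval from the edgeR fit (not adjusted for the number of genes tested). The 9 genes that rose run from 0.53 for Btg2 to 1.75 for Ddb2, and the 4 that fell from -0.68 for Gadd45a to -1.07 for Ei24.

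Among the genes of the p53 circuit itself, the RNAs of Trp53 and its neighbour rose, and those of its inhibitors did not pass. That is 2 of 5 genes (40%), where 15.9% of all tested genes rose. Trp53 (chromosome 11, 69580359 to 69591873, plus strand) was at 222, 298 and 356 CPM in cluster KO and 199, 198 and 172 CPM in wildtype libraries. All cluster KO libraries lay above all wildtype ones, with cluster KO 1 nearest to them, and the log2 fold change was 0.62 (SE 0.16, adjusted p = 0.0192, edgeR). Per kilobase of its longest coding transcript, Trp53 was the highest of the 34 in every library, at 92.1 to 190 CPM per kilobase. Ccng1, the next in the order of wildtype levels, was at 24.4 to 31 CPM per kilobase. The rise of Trp53 depended on processing: it was 0.18 (adjusted p = 0.268, edgeR) once length and GC trends were removed. It also missed the threshold without cluster KO 2, cluster KO 3, wildtype 2 or wildtype 3 (0.45 to 0.65, adjusted p = 0.0522 to 0.0829).

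Wrap53 (chromosome 11, 69561758 to 69580255, minus strand) encodes a protein that guides small Cajal body RNAs and telomerase RNA to Cajal bodies. Its level was 33.5, 44.4 and 42.4 CPM in cluster KO and 30.4, 22.3 and 15.1 CPM in wildtype libraries. The groups did not overlap, though cluster KO 1 and wildtype 1 were close, and the log2 fold change was 0.83 (SE 0.24, adjusted p = 0.0286, edgeR). Trp53 and Wrap53 share no exon bases in the annotation used here. The library does not keep strand, so reads that run past an annotated end could not be assigned to a strand. Wrap53 was at 0.42 (adjusted p = 0.154, edgeR) with length and GC trends removed, and missed the threshold without any of the same 4 libraries (0.60 to 0.82, adjusted p = 0.0682 to 0.103).

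Mdm2, the ligase that marks p53 for degradation and is itself a p53 target, was at 59.8, 70.7 and 85.0 CPM in cluster KO and 58.6, 51.1 and 53.5 CPM in wildtype libraries. The groups did not overlap, but cluster KO 1 was close to wildtype 1, and the log2 fold change of 0.40 (95% interval 0.06 to 0.74, adjusted p = 0.0774, edgeR) did not pass. It passed with DESeq2 (0.41, adjusted p = 0.044) and without cluster KO 1 (0.51, adjusted p = 0.0184), 2 of the 15 settings tried. Without cluster KO 3 it was 0.26 (adjusted p = 0.214, edgeR). Mdm4, which binds p53 and blocks its activity, was at 123, 98.5 and 107 against 119, 127 and 127 CPM, overlapping groups with a log2 fold change of -0.19 (adjusted p = 0.281, edgeR; 0.08 with length and GC trends removed). The pseudogene Mdm4-ps held 82 to 180 counts in cluster KO and 209 to 311 in wildtype libraries, and how reads were divided between it and Mdm4 was not tested. Trp53-ps held 1 count over all libraries. Ppm1d, the phosphatase that switches the damage response off, was at 27.4, 29.1 and 34.8 against 24.8, 27.2 and 32.6 CPM, nearly the same range in both genotypes (log2 fold change 0.11, 95% interval -0.27 to 0.49).

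Cell cycle targets of p53 went in both directions, with opposite calls for the Gadd45 genes. Of these 6 targets 3 rose (50%) and 1 fell (16.7%), where 15.9% of all tested genes rose and 12.1% fell. Gadd45a (chromosome 6, 67035096 to 67037457) encodes a small protein that binds Cdk1, PCNA and the stress kinase MTK1. It was at 19.6, 18.6 and 17.7 CPM in cluster KO and 28.5, 29.4 and 31.5 CPM in wildtype libraries. These were tight, separate groups, and it fell by 0.68 on the log2 scale (SE 0.15, adjusted p = 0.0104, edgeR). Gadd45b (chromosome 10, 80930073 to 80932204), its relative that NF-kappaB and TGF-beta also induce, was at 12.2, 10.7 and 11.8 against 6.38, 6.57 and 5.69 CPM. Every cluster KO library was above every wildtype library, and it rose by 0.90 (SE 0.21, adjusted p = 0.0127, edgeR). The antisense gene E230016M11Rik shares 337 exon bases with Gadd45a and was at 2.38 to 2.90 against 2.55 to 3.69 CPM. Without cluster KO 2, Gadd45a was at -0.67 with adjusted p = 0.0512 (edgeR).

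The ratio of Gadd45b to Gadd45a within a library does not depend on how libraries are scaled. Its log2 value was -0.68, -0.79 and -0.58 in cluster KO and -2.16, -2.16 and -2.47 in wildtype libraries, a difference of 1.58. This was the widest separation among the 6 gene pairs compared. The exact two-sided permutation p was 0.1, the smallest that 3 against 3 libraries allow (0.15 adjusted over the 6 pairs).

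Of the cyclin G genes, Ccng2 rose and Ccng1 did not pass. Ccng2 (chromosome 5, 93267257 to 93276231), an atypical cyclin tied to cell cycle arrest and also induced by FOXO factors, was at 64.8, 68.5 and 80.7 CPM in cluster KO and 50.8, 49.7 and 39.3 CPM in wildtype libraries. The groups were apart, and the log2 fold change was 0.62 (SE 0.15, adjusted p = 0.0158, edgeR). It missed the threshold without cluster KO 2 (0.65, adjusted p = 0.0538) or wildtype 3 (0.51, adjusted p = 0.065). The fit with the replicate number as a block missed it too (0.62, adjusted p = 0.0664, edgeR). Ccng1, one of the most direct p53 targets in mouse tissue, was at 85.7, 90.0 and 102 against 96.6, 103 and 109 CPM. These ranges overlapped, and its log2 fold change was -0.15 (95% interval -0.42 to 0.12, adjusted p = 0.389, edgeR). The log2 ratio of Ccng2 to Ccng1 was -0.40, -0.39 and -0.34 against -0.93, -1.05 and -1.47, again without overlap (difference 0.77, exact permutation p = 0.1, adjusted 0.15).

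Btg2 (chromosome 1, 134075170 to 134079120), an antiproliferative gene that also responds within minutes to growth signals, was at 26.8, 32.6 and 33.3 CPM in cluster KO and 23.4, 20.6 and 20.1 CPM in wildtype libraries. Its groups did not overlap and the log2 fold change was 0.53 (SE 0.16, adjusted p = 0.0349, edgeR), but it missed the threshold in each fit that left out a library other than cluster KO 1 (0.47 to 0.60, adjusted p = 0.0565 to 0.127). It also missed it with upper-quartile scaling (0.42, adjusted p = 0.0694) and with length and GC trends removed (0.35, adjusted p = 0.0947, edgeR). Plk2, a polo-like kinase gene of the same double membership, was at 4.29, 3.998 and 7.67 against 3.57, 1.93 and 3.23 CPM. Its libraries did not overlap, yet its log2 fold change was 0.86 with an SE of 0.37, which did not pass (adjusted p = 0.107, edgeR), and 0.51 without cluster KO 3. Of 20 tested immediate early genes on a separate list, 9 rose (45%) and 1 fell (5%), beside 15.9% and 12.1% of all tested genes. The summed level of that list was 1084, 1408 and 1612 CPM in cluster KO and 787, 797 and 803 CPM in wildtype libraries. Btg2 ran in the same order as this sum within cluster KO and in the opposite order within wildtype, while Gadd45b and Plk2 were lowest in cluster KO 2. Whether the immediate early response has a part in these calls was not tested. On that list Per1 fell (log2 fold change -2.04) and the phosphatase gene Dusp2 rose (1.04).

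Of the 10 apoptosis genes 2 rose and 2 fell (20% each), where 15.9% of all tested genes rose and 12.1% fell. Fas (chromosome 19, 34290666 to 34327772), the death receptor, was at 3.61, 8.59 and 5.62 CPM in cluster KO and 2.94, 1.98 and 0.615 CPM in wildtype libraries. The lowest cluster KO value was near the highest wildtype one, and the log2 fold change was 1.68 (SE 0.52, adjusted p = 0.0372, edgeR). Phlda3 (chromosome 1, 135766119 to 135769136), which restrains Akt at the membrane, was at 7.17, 13.5 and 13.2 against 6.33, 5.44 and 2.31 CPM. Cluster KO 1 was again the nearest to wildtype, and the log2 fold change was 1.26 (SE 0.39, adjusted p = 0.0347, edgeR). Both missed the threshold without cluster KO 2, cluster KO 3, wildtype 2 or wildtype 3. Fas then ranged from 1.26 to 1.73 (adjusted p = 0.0702 to 0.152) and Phlda3 from 0.94 to 1.38 (adjusted p = 0.0772 to 0.12, edgeR). With length and GC trends removed Fas was at 1.43 (adjusted p = 0.0625) and Phlda3 at 1.05 (adjusted p = 0.059, edgeR), and neither passed.

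Ei24 (chromosome 9, 36779159 to 36797393), an endoplasmic reticulum protein gene first found as a p53-induced gene and needed for autophagy, was at 14.6, 14.7 and 11.1 CPM in cluster KO and 24.1, 29.6 and 31.2 CPM in wildtype libraries. The groups were well apart, and it fell by 1.07 on the log2 scale (SE 0.19, adjusted p = 0.00446, edgeR), the smallest p of the 34. Gm26787, an antisense gene that shares 324 exon bases with it, held 6 counts or fewer in each library. Zmat3 (chromosome 3, 32334792 to 32366014), an RNA-binding splicing regulator that is a strong p53 target, was at 7.58, 5.01 and 5.20 against 9.14, 10.4 and 11.0 CPM. It fell by 0.78 (SE 0.25, adjusted p = 0.0415, edgeR), but missed the threshold in each fit that left out a library other than cluster KO 1 (-0.85 to -0.67, adjusted p = 0.0669 to 0.149). It also missed it with no filter on low counts (adjusted p = 0.0605) and with length and GC trends removed (-0.50, adjusted p = 0.127, edgeR).

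Of the other apoptosis genes, Pidd1, the scaffold of the caspase-2 PIDDosome, came closest. It was at 19.3, 12.5 and 12.1 CPM in cluster KO and 20.5, 25.2 and 22.8 CPM in wildtype libraries, without overlap (log2 fold change -0.64, SE 0.22, adjusted p = 0.0506, edgeR). It passed with DESeq2 (adjusted p = 0.0212), limma-voom (0.0406), upper-quartile scaling (0.0383), a mean of at least 50 counts (0.0365), length and GC trends removed (0.0452) and without cluster KO 1 (0.0058). Perp, a desmosome protein gene with a role in p53-dependent death, was at 5.16, 6.73 and 4.27 against 1.99, 2.49 and 3.95 CPM (log2 fold change 0.94, adjusted p = 0.068, edgeR). Perp passed with DESeq2 (adjusted p = 0.0391) and was at 0.58 with length and GC trends removed. Tnfrsf10b, the only TRAIL death receptor of the mouse, was at 2.38, 2.23 and 1.998 against 2.62, 5.21 and 4.20 CPM (-0.86, adjusted p = 0.0954, edgeR). The nuclease gene Aen had log2 fold change 0.10 (95% interval -0.19 to 0.38) and Trp53inp1, a p53 cofactor and autophagy gene, 0.31 (95% interval -0.11 to 0.73). Trp53inp1 passed with length and GC trends removed (0.58, adjusted p = 0.0201, edgeR), and ranged from 0.18 without cluster KO 1 to 0.52 without wildtype 3. Eda2r, an X-linked receptor gene, was the lowest of the set at 0.453 to 3.30 CPM. Its 95% interval of -2.20 to 0.70 left the direction undetermined, with 73, 8 and 32 counts in wildtype libraries.

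In metabolism and autophagy, 1 of 4 genes rose (25%, beside 15.9% of all tested genes). Sesn1 (chromosome 10, 41809935 to 41908424), a leucine-sensitive inhibitor of mTORC1, was at 78.4, 119 and 145 CPM in cluster KO and 62.4, 56.8 and 60.7 CPM in wildtype libraries. Wildtype values lay close together while cluster KO values spread widely above them, and the log2 fold change was 0.93 (SE 0.20, adjusted p = 0.00861, edgeR). Its relative Sesn3, which FOXO factors induce, was at 31.6, 36.0 and 34.1 against 26.7, 35.2 and 46.1 CPM. The cluster KO values fell inside the wildtype range, with a log2 fold change of -0.09 (adjusted p = 0.774, edgeR; 0.13 without wildtype 3). The log2 ratio of Sesn3 to Sesn1 was -1.31, -1.73 and -2.09 against -1.23, -0.69 and -0.40 (difference -0.94, exact permutation p = 0.1, adjusted 0.15). Tigar, which lowers glycolytic flux, and Dram1, a lysosomal autophagy protein gene, ran from 0.769 to 4.46 and from 0.86 to 5.30 CPM over the 6 libraries, and overlapped between genotypes.

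Of the 4 DNA repair genes in the set only Ddb2 rose (25%, beside 15.9% of all tested genes), with the largest estimated log2 fold change of the 34 genes. Ddb2 (chromosome 2, 91211572 to 91236982) recognises ultraviolet damage for nucleotide excision repair. It was at 8.82, 12.2 and 20.3 CPM in cluster KO and 5.52, 3.85 and 2.87 CPM in wildtype libraries, a graded but separate pair of groups, and rose by 1.75 on the log2 scale (SE 0.36, adjusted p = 0.00721, edgeR). Acp2 runs on the opposite strand and shares 652 exon bases with it, 23.8% of the exon bases of Ddb2. Acp2 itself was at 17.3, 19.99 and 23.6 against 15.0, 16.4 and 18.3 CPM (log2 fold change 0.29, adjusted p = 0.266, edgeR), and reads of the shared part cannot be assigned by strand. The damage sensor Xpc, which acts beside Ddb2, was at 54.3, 40.9 and 42.7 against 45.4, 44.8 and 38.8 CPM (log2 fold change 0.10, 95% interval -0.25 to 0.44). The bypass polymerase gene Polk had 0.07 (95% interval -0.37 to 0.51). Rrm2b, the p53-controlled subunit of ribonucleotide reductase, was at 16.1, 25.8 and 22.6 against 17.9, 14.8 and 14.6 CPM (0.45, adjusted p = 0.139, edgeR; 0.61 and adjusted p = 0.0316 without cluster KO 1).

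The checkpoint kinases did not pass, and Brca1, which acts in homologous recombination, fell. That is 1 of 5 genes (20%), where 12.1% of all tested genes fell. Brca1 (chromosome 11, 101488764 to 101551955) was at 22.9, 20.5 and 18.8 CPM in cluster KO and 43.3, 29.8 and 35.1 CPM in wildtype libraries. The groups were apart, and it fell by 0.80 on the log2 scale (SE 0.18, adjusted p = 0.0105, edgeR). Atm, the kinase of double-strand breaks, was at 25.3, 22.7 and 17.9 against 24.8, 27.0 and 29.5 CPM (log2 fold change -0.30, 95% interval -0.70 to 0.10). Atr, which senses single-stranded DNA at stalled forks, was at 55.2, 51.6 and 42.0 against 56.8, 59.8 and 74.5 CPM, groups that barely separate (-0.36, adjusted p = 0.118, edgeR). With length and GC trends removed Atm was at 0.005 and Atr at -0.06. The log2 ratio of Atm to Atr stayed between -1.34 and -1.13 in all 6 libraries (difference 0.05, exact permutation p = 0.6, adjusted 0.6).

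Chek1, the effector of Atr, was at 45.2, 58.7 and 65.7 CPM in cluster KO and 65.7, 60.2 and 65.1 CPM in wildtype libraries (log2 fold change -0.17, 95% interval -0.52 to 0.18). Chek2, the effector of Atm, was at 40.1, 44.9 and 63.5 against 35.7, 41.3 and 39.9 CPM (0.35, 95% interval -0.06 to 0.75). Chek2 was at 0.13 without cluster KO 3 and 0.03 with length and GC trends removed. Neither Chek1 nor Chek2 separated by itself, whereas their log2 ratio was 0.17, 0.39 and 0.05 against 0.88, 0.54 and 0.71, without overlap (difference -0.51, exact permutation p = 0.1, adjusted 0.15). For Mdm2 to Mdm4, the remaining pair, the ratio was -1.04, -0.48 and -0.33 against -1.02, -1.31 and -1.25. Cluster KO 1 lay inside the wildtype range there (difference 0.58, exact permutation p = 0.2, adjusted 0.24).

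**Figure D3:**
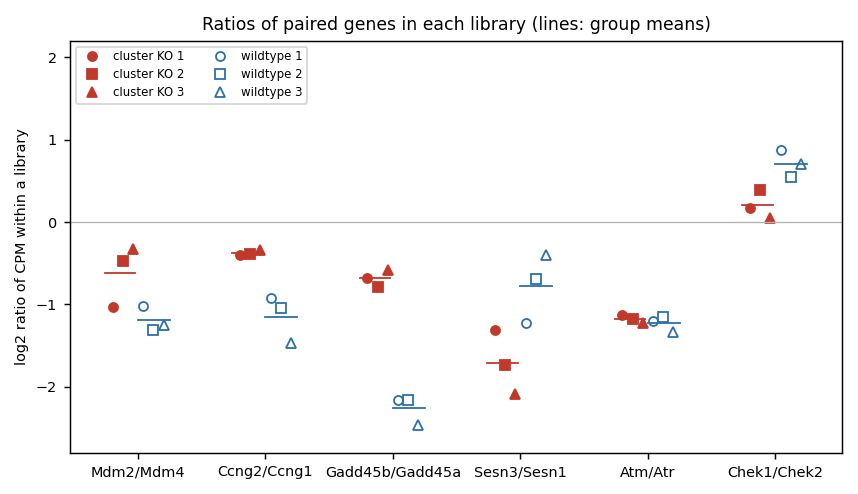
Log2 ratio of CPM of 6 gene pairs within each library, with lines at the group means, red for cluster KO and blue for wildtype. Gadd45b to Gadd45a shows the widest gap (means -0.68 and -2.26), Atm to Atr hardly any (-1.18 and -1.23).

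Sesn1, Ddb2, Ei24 and Brca1 were called in all 15 settings, the main one and its alternatives, and Gadd45a and Gadd45b in 14. The smallest sizes over the settings were 0.72 for Sesn1, 1.36 for Ddb2, -0.95 for Ei24 and -0.55 for Brca1. Ccng2 was called in 12, Trp53, Wrap53, Phlda3 and Fas in 9, and Zmat3 and Btg2 in 7. In the cluster KO libraries the share of reads outside genes was 10.1, 8.59 and 7.29%, and in the wildtype libraries it was 10.03, 10.5 and 11.1%. Of the 9 genes that rose, 5 (Trp53, Ccng2, Sesn1, Btg2 and Ddb2) ran in the reverse order of this share within cluster KO, and 4 of these, all but Sesn1, within wildtype too. Over all genes that rose, 67.1% ran so within cluster KO and 33.2% in both genotypes. The part of this share in the calls was not tested.

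**Figure D4:**
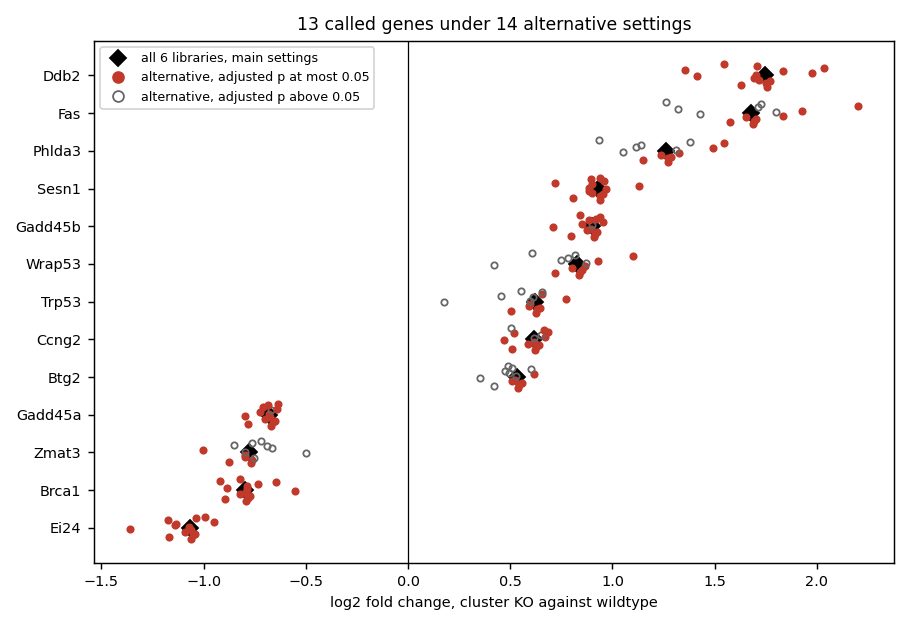
Log2 fold change of the 13 called genes under the main settings (black diamonds) and 14 alternatives, filled red where the adjusted p was at most 0.05 and open grey where it was above, spread vertically for legibility. Points of Ddb2, Sesn1, Brca1 and Ei24 are filled throughout, and the leftmost open point of Trp53, at 0.18, is the fit without length and GC trends.

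Other p53 targets, from a list apart from the 34, also moved both ways. Of 32 tested genes 9 were higher (28.1%) and 5 lower (15.6%), beside 15.9% and 12.1% of all tested genes. The median log2 fold change of the list was 0.21. Cdkn1a, the p21 inhibitor of cyclin-dependent kinases and the best known p53 target, was at 32.4, 24.9 and 26.8 CPM in cluster KO and 12.2, 11.0 and 15.6 CPM in wildtype libraries. All cluster KO values were well above wildtype, and it rose by 1.11 (SE 0.20, adjusted p = 0.00433, edgeR; 0.71 and 0.0446 with length and GC trends removed). The apoptosis genes Bax, Bbc3 and Pmaip1 did not pass. Bax was at 73.8, 75.7 and 77.9 against 87.1, 89.7 and 68.9 CPM (log2 fold change -0.11, adjusted p = 0.569, edgeR), and Bbc3 at 2.92, 3.03 and 3.58 against 2.90, 3.40 and 2.87 CPM (0.06, adjusted p = 0.906, edgeR). Pmaip1 ran from 0.136 to 1.30 CPM. The smallest p values of that list belonged to the ribosomal protein paralog Rps27l (-0.96), the phosphatase gene Ptp4a3 (1.08) and Trp53i13 (1.23). Rps27l has a near-identical relative in Rps27, so its count is uncertain.

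Regulators of p53 were lower more often than higher, at 9 against 2 of 28 tested genes (32.1% and 7.14%). Of all tested genes 12.1% were lower and 15.9% higher. The median log2 fold change of the regulators was -0.34. The 3 with the smallest p encode nucleolar or ribosomal proteins that bind Mdm2, Rpl23 (-1.05), Npm1 (-0.58) and Rpl11 (-0.84), and their families have many pseudogenes, so their counts are uncertain. Among other damage sensing and checkpoint genes 4 of 33 rose (12.1%) and 6 fell (18.2%), beside 15.9% and 12.1% of all tested genes. The histone gene H2afx, whose phosphorylated form marks breaks, was at 188, 233 and 257 CPM in cluster KO against 119, 97.8 and 85.6 CPM in wildtype libraries (log2 fold change 1.16, SE 0.16, adjusted p = 0.00231, edgeR). Rad9a, a subunit of the clamp that activates Atr, rose by 1.56 and Topbp1, its partner, fell by 0.79. Of 28 double-strand break repair genes 2 rose and 2 fell (14.3% called, beside 27.9% of all tested genes). Of 23 nucleotide excision repair genes 3 rose (13%) and 5 fell (21.7%), beside the same 15.9% and 12.1%. Rad23b, which stabilises Xpc, fell (-1.04), and Xrcc6, which encodes Ku70, rose (0.93).

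Of 32 S phase and mitosis genes 8 rose (25%) and 4 fell (12.5%), beside 15.9% and 12.1% of all tested genes. Summed levels of the 32 were 5764, 6080 and 7384 CPM in cluster KO and 6049, 5696 and 5736 CPM in wildtype libraries. Rrm2 (0.92) and Cdc20 (0.95) had the smallest p of those. The sums overlapped between genotypes, while cluster KO 3, the library highest in Trp53 and Chek2, was also highest in this sum. The part of cell cycling in these levels was not tested.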

How the data were processed

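Bone marrow RNA of 3 cluster KO and 3 wildtype libraries was sequenced from unstranded poly(A) Nextera libraries, per the labels' protocols. Each deposited value is a whole-number read count of an Ensembl gene, not normalized. The submitters' processing notes name bcl2fastq, TopHat2, HTSeq and mm10, without versions, and the annotation release and counting mode were not stated. HTSeq summary rows entered neither library sizes nor tests. Among these, reads with several alignments took 13.4 to 16.8% and ambiguous reads 2.71 to 2.95%. Since the libraries are unstranded, reads where genes overlap cannot be assigned by strand, and reads from near-identical copies are dropped or misplaced.

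Groups came from sample titles. The test was edgeR 4.0.16 in R 4.3.3 (TMM, filterByExpr with minimum count 10, robust quasi-likelihood fit on genotype, Benjamini-Hochberg at 0.05 over all 15686 tested genes). The SE is the log2 fold change divided by the root of F. Within a genotype, libraries differed by more than sampling noise (chi-square per degree of freedom 11 to 70.5). A count of 0 would allow up to 3 counts, or 0.126 to 0.17 CPM, for counting error only; none of the 34 genes had one. Paired ratios used a prior count of 0.5 and exact permutation tests over libraries. Names, positions and the longest coding transcript came from GENCODE M21 (47310 of 47729 identifiers matched), promoters from RefSeq GRCm38.p6. The edgeR script was tested on simulated data.

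Values in every library are given for those of the 34 genes that passed and for Trp53, Mdm2 and Mdm4. From the other pathway, immediate early and S phase lists the genes with the smallest p are named, mostly with the log2 fold change alone, beside Cdkn1a, Bax, Bbc3 and Pmaip1. Marker lists are given by counts and sums. A gene that this rule names is not reported here. Genes beyond that rule were described after their values were seen. The 34 genes, the lists and the rule were chosen with earlier results of these data known. Alternatives were DESeq2 1.42.0, limma-voom (limma 3.58.1), upper-quartile and library-total scaling, no filter and a mean of at least 50 counts, length and GC trends removed (lowess, span 0.3), the replicate number as a block, and each library left out.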

Additional observations from a re-analysis of the deposited data

How the results depend on the processing

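All 13 called genes kept their direction under each alternative. Over all tested genes 4382 were called, 2487 higher and 1895 lower. With 1 library left out the total ran from 2000 to 5730, the number higher from 1258 to 3151 and the number lower from 742 to 2579; among the 34 genes, 3 to 11 rose and 2 to 5 fell. With the replicate block 2196 genes were called, 1331 higher and 865 lower. Of the 34, 2 then rose (Sesn1 and Ddb2) and 3 fell (Gadd45a, Ei24 and Brca1). The rest of the 13 called genes missed the threshold. The titles share only a number between genotypes: deviations of same-numbered libraries correlated at -0.10, 0.01 and -0.07, so the samples were not treated as paired. With length and GC trends removed 5 of the 34 rose, beside 2030 of all 15686 tested genes. In that fit Mdm4 was at 0.084, Sesn3 at 0.234, Ppm1d at -0.026, Atm at 0.005 and Bbc3 at -0.253 (log2). Upper-quartile scaling moved the median of all genes to -0.10 and gave 2100 higher and 2411 lower calls; relative to 0, Aen was then at -0.013, Xpc at -0.002, Polk at -0.039, Ppm1d at -0.003 and Bbc3 at -0.052. With single libraries left out, signs also changed for Sesn3 (-0.262 to 0.131, positive without wildtype 3), the log2 ratio of Atm to Atr (difference -0.006 to 0.087, negative without wildtype 3), Eda2r (-1.196 to 0.035, positive without wildtype 1), Polk (-0.083 to 0.205, negative without wildtype 2), Xpc (-0.051 to 0.177, negative without cluster KO 1) and Bbc3 (-0.036 to 0.141, negative without cluster KO 3). The cause of these shifts was not tested. The 95% intervals of Eda2r (-2.20 to 0.70), Tigar (-0.48 to 1.88) and Dram1 (-0.39 to 2.07), genes of few counts, allow changes in both directions.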
